A study of Mus musculus with 454 samples.

Results

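Banp and 8 other genes, P4ha1, Narf, Rbm12b1, Mxd4, Rbm11, Rfesd, Fam107a and Vegfa, were followed through every library of a mouse study of cocaine, sex and social isolation. These 9 genes, of 43346 in the count table, were chosen by their counts, which differed between chronic cocaine and chronic saline in the amygdala (AMY), the nucleus accumbens (Nac) or the ventral tegmental area (VTA). Their chronic values in those 3 regions are therefore a description and carry no test. The prefrontal cortex (PFC), acute cocaine, sex and housing were not among the comparisons used by that choice and were tested. Differences between runs of title numbers were not used either and were tested in acute libraries and in PFC. Those among chronic libraries of AMY, Nac and VTA share libraries with the choice and are a description. Chronic levels in PFC followed those of the other regions for some of the genes.

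The study measured polyadenylated RNA by bulk sequencing in 454 libraries from 4 brain regions, 115 from AMY, 112 from Nac, 112 from PFC and 115 from VTA. Each library is labelled with a sex (F or M), a housing (G for mice kept in groups, SI for mice socially isolated), a cocaine dose of 7.5 or 0 mg/kg, the latter being saline, and a schedule (acute or chronic), which gives 64 groups of 5 to 8 libraries. The labels used here give neither strain nor age nor the number of doses, and the study's title places the isolation in adolescence. The libraries of a group carry different title numbers, but the labels do not say that they came from separate animals, so p-values measure the spread between libraries. The smallest library held 11.2 M (mega) counts, the median one 21.7 M and the largest 52.3 M. Region markers followed the labels. The median of Th, the dopamine synthesis enzyme, was 834 CPM (a counts-per-million scale with TMM factors) in VTA and at most 12.9 CPM elsewhere, that of the dopamine receptor gene Drd1 was 248 CPM in Nac, and that of Slc17a7, the cortical vesicular glutamate transporter, was 1693 CPM in PFC. By principal components, choroid plexus RNA or transcripts of the other sex, 7 AMY, 5 Nac, 2 PFC and 4 VTA libraries stood apart. Among them 2 Nac libraries and 1 AMY library labelled female held Y-linked transcripts at 8.10%, 33.9% and 5.82% of the male median, and they kept their labels.

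Library titles carry a number, and these numbers fall into runs that do not cross the treatments evenly. All chronic saline libraries numbered in the 500s lack a cocaine counterpart, and chronic cocaine libraries numbered in the 1000s lack a saline one. Numbers in the 1200s hold both, with 8 cocaine and 16 to 18 saline libraries per region. Chronic cocaine and the run of numbers are therefore partly confounded. Only series 1200 (the libraries numbered from 1200) compares chronic cocaine with saline inside a run. Inside that series the cocaine libraries carry the lower numbers and the saline libraries the higher ones. No decade there (numbers that differ only in the last digit) holds both, so treatment and decade cannot be told apart within series 1200. The acute libraries come from series 1000 and 1100, each of which holds cocaine and saline in near-equal numbers. Among the acute libraries of series 1000, however, each decade holds a single treatment and housing. In series 1100 only the lowest-numbered libraries mix treatments within a decade. Acute cocaine and decade are therefore largely confounded too. What the runs stand for is not stated in the labels.

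The 9 genes have varied textbook roles. Banp encodes a nuclear matrix protein that binds the sequence CTCGCGAG in unmethylated CpG-rich promoters and activates the genes there. P4ha1 encodes the catalytic subunit of collagen prolyl 4-hydroxylase in the endoplasmic reticulum, and Vegfa encodes the main growth factor for blood vessels. Both are induced by hypoxia-inducible factors (HIFs), which bind ACGTG and GCGTG elements. Mxd4 encodes a partner of MAX that opposes MYC at E-boxes (CACGTG), Rbm11 a splicing regulator enriched in brain, Rbm12b1 an RNA-binding protein, Narf a nuclear protein that binds prelamin A, and Rfesd a protein with a Rieske iron-sulfur domain. Fam107a encodes an actin-binding protein that rises with stress and with glucocorticoids, whose receptor binds half-sites such as AGAACA, and it is strongly expressed in astrocytes.

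On GRCm38/mm10 all 9 are annotated as protein coding. Banp (ENSMUSG00000025316) lies at chr8:121949750-122029258, P4ha1 (ENSMUSG00000019916) at chr10:59323296-59373304, Narf (ENSMUSG00000000056) at chr11:121237253-121255856, Rbm12b1 (ENSMUSG00000046667) at chr4:12140264-12146731 and Rbm11 (ENSMUSG00000032940) at chr16:75592844-75602829, all on the plus strand. Mxd4 (ENSMUSG00000037235) lies at chr5:34173883-34187720, Rfesd (ENSMUSG00000043190) at chr13:76001535-76018719, Fam107a (ENSMUSG00000021750) at chr14:8296274-8318023 and Vegfa (ENSMUSG00000023951) at chr17:46016993-46032369, all on the minus strand.

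Promoter windows of 300 bases were available from RefSeq (GRCm38.p6) for 7 of the 9 genes, in 11 windows. Shown are windows of the HIF targets P4ha1 and Vegfa, of Mxd4, whose protein family acts at E-boxes, and of Fam107a, which responds to glucocorticoids. Each runs 5′ to 3′ on the coding strand, with the elements in capitals on either strand.

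P4ha1, chr10:59323046-59323345, plus strand: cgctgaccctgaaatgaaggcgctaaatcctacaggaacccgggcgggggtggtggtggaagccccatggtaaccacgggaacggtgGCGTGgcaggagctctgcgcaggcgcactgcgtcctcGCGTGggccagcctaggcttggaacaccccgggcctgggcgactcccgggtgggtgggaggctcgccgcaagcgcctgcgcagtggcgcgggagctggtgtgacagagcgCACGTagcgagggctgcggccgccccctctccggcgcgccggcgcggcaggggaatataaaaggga

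Mxd4, chr5:34187661-34187960, minus strand: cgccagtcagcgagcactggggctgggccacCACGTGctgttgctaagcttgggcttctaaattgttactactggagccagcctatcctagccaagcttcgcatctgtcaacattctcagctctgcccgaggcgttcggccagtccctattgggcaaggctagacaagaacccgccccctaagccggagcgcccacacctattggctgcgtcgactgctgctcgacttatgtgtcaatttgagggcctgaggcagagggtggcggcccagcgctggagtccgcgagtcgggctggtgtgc

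Fam107a, chr14:8317558-8317857, minus strand: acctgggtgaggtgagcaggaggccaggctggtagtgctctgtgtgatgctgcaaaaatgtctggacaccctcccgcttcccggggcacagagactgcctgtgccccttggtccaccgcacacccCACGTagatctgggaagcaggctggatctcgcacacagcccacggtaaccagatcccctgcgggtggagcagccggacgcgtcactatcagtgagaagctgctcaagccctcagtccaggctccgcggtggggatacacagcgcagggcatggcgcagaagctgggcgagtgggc

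Fam107a, second start, chr14:8309730-8310029, minus strand: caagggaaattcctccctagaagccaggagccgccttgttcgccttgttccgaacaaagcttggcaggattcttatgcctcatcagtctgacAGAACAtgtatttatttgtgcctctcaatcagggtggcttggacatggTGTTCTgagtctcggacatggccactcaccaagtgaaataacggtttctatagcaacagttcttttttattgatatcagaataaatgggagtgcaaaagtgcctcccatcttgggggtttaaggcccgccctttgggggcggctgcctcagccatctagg

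Vegfa, second start, chr17:46025114-46025413, minus strand: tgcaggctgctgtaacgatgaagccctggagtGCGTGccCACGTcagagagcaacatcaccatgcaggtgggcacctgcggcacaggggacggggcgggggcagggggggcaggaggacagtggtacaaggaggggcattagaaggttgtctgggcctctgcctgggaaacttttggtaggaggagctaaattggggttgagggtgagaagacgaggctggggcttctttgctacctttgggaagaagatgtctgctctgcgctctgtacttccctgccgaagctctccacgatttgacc

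The P4ha1 window held 1 ACGTG, at -16 from the start site, and GCGTG at -163 and -126. Both are common: over 32851 promoter windows of the same length, searched on both strands, 19.6% held ACGTG and 32.4% GCGTG. The Mxd4 window held an E-box at -219, as did 7.15% of windows, and an E-box contains ACGTG on both strands. Fam107a held ACGTG at -125 of the first window and AGAACA at -158 and -110 of the second, a half-site found in 19% of windows. The second Vegfa window held ACGTG at -211 and GCGTG at -218, but it lies inside the annotated span of the gene. The first Vegfa window, which lies at the 5′ end of that span and is not shown, held neither. Whether any of these letters act as elements was not tested. The genes not shown held such letters too, with GCGTG at -129 in Narf and at -75 and -66 in Rbm11, and in Rfesd an E-box at -155 and GCGTG just after the start site of its first window. None of the 11 windows held CTCGCGAG, which stood in 0.919% of windows.

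Levels were compared per kilobase of exon, since counts grow with length. Fam107a was the most abundant of the 9, at a mean of 93.03 CPM per kb in PFC, 90.9 in Nac, 71.5 in AMY and 37.3 in VTA. Vegfa, P4ha1, Narf and Mxd4 followed, with regional means of 7.54 to 19.3 CPM per kb. Banp, Rbm11, Rfesd and Rbm12b1 were lowest, at 1.94 to 3.67 CPM per kb. Even Rbm12b1 had at least 70 counts in every library and Banp at least 141, so no value rests on a handful of reads.

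The order of regions was tested over the 86 title numbers found in all 4 regions, with a sign-flip permutation test of the paired log2(CPM + 0.5) difference and Benjamini-Hochberg adjustment over 54 tests. Banp was highest in AMY and PFC, which differed by 0.03 (permutation p = 0.204; without TMM factors 0.10, permutation p = 1e-05, AMY higher in 64 of 86 numbers), then Nac, then VTA, where it was lower than in AMY by a mean log2 of 0.38 and lower in 84 of 86 numbers. P4ha1 fell from PFC to Nac, AMY and VTA. AMY was above VTA by only 0.04 (permutation p = 0.00526), and over the acute libraries alone the difference was -0.004. Fam107a was 1.34 higher on the log2 scale in PFC than in VTA, in 86 of 86 numbers, while PFC and Nac differed by 0.04 (permutation p = 0.120). Narf and Vegfa ran the other way, with VTA highest: Narf in VTA exceeded AMY in all 86 numbers, by 0.42, and Vegfa in 84, by 0.48. PFC and Nac did not differ detectably in Narf (permutation p = 0.837). Every other pair named here reached the smallest p that 100000 resamples can give, 1e-05. Of the remaining genes, Rbm11 was highest in AMY and lowest in PFC, Mxd4 highest in PFC and lowest in VTA, Rbm12b1 highest in Nac and lowest in VTA, and Rfesd highest in Nac and lowest in PFC, each against the next region with a permutation p of at most 0.00027. Without TMM factors the Mxd4 levels of PFC and Nac differed by 0.003 (permutation p = 0.846).

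In chronic cocaine libraries Banp stood higher than in chronic saline in all 4 regions. In AMY, Banp in chronic saline ran from 13.3 to 23.8 CPM with a median of 17.6 (n = 30), and in chronic cocaine from 16.6 to 38.7 with a median of 21.45 (n = 30). The 2 arms overlap, with 11 of the 30 cocaine libraries above every saline library. In Nac, chronic saline ran from 10.94 CPM up (median 15.4, n = 28) and chronic cocaine from 12.85 to 35.6 (median 19.3, n = 29), 14 of them above every saline library. In VTA the values were 9.04 to 18.2 (median 12.6, n = 29) and 10.4 to 26.8 (median 17.1, n = 29), with 10 above. PFC ran from 14.4 to 24.1 CPM in saline (median 18.2, n = 26) and from 13.8 to 37.45 in cocaine (median 20.15, n = 28). The cocaine arm was thus wider than the saline arm in every region, with an upper part that saline did not reach.

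The high Banp values in chronic cocaine came from series 1000. In AMY the 22 cocaine libraries of series 1000 averaged 25.2 ± 5.85 CPM (SD) and the 8 of series 1200 averaged 19.4 ± 1.60 CPM, beside 17.6 ± 2.14 CPM in the 17 saline libraries of series 1200 and 17.8 ± 2.59 CPM in the 13 of series 500. Nac gave 23.3 ± 6.11 CPM (n = 21) and 16.9 ± 1.88 CPM (n = 8) in cocaine, beside 15.5 ± 1.89 CPM (n = 18) in saline of series 1200. VTA gave 18.25 ± 4.40 CPM (n = 21) and 13.6 CPM (n = 8, between 10.6 and 17.45), beside 13.2 ± 2.20 CPM (n = 17). Inside series 1200 no cocaine library exceeded the highest saline library in any of the 4 regions.

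**Figure D1:**
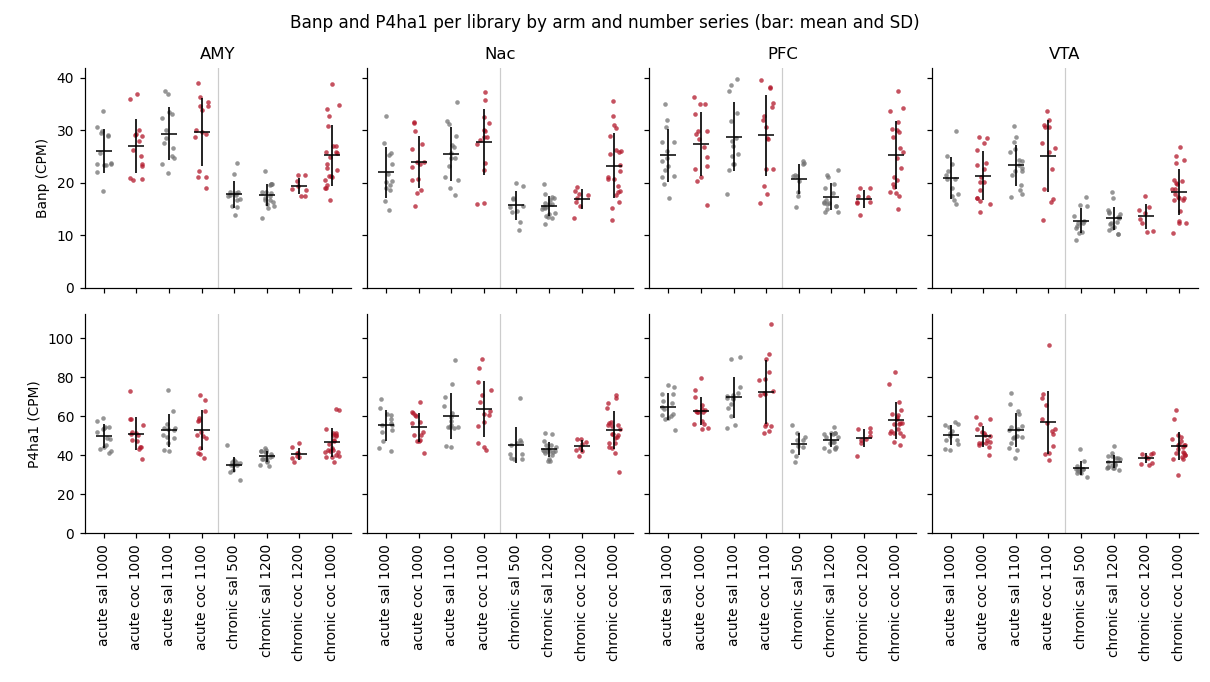
CPM of Banp and P4ha1 in each library, by region, schedule, treatment and number series; each point is 1 library and bars mark the mean and SD. In AMY the chronic cocaine libraries of series 1000 average 25.2 CPM for Banp, those of series 1200 average 19.4 CPM and chronic saline 17.7 CPM.

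P4ha1 was likewise higher in series 1000 than in series 1200. In AMY it averaged 37.6 ± 3.91 CPM in chronic saline (n = 30), 46.6 ± 7.31 CPM in chronic cocaine of series 1000 (n = 22) and 40.8 ± 3.17 CPM in that of series 1200 (n = 8). In VTA the means were 35.4 ± 3.80 (n = 29), 44.6 ± 7.18 (n = 21) and 38.4 ± 2.57 CPM (n = 8). Nac gave 43.8 ± 6.36, 52.8 ± 9.63 and 44.7 ± 3.11 CPM, and 1 Nac saline library of series 500, from an isolated female, reached 69.6 CPM. That library stood farthest apart on principal components, and its Narf level was also the lowest of its run.

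Fitted over 16 groups per region, the chronic log2 changes of Banp were 0.41 ± 0.07 (SE) in AMY, 0.48 ± 0.09 in Nac and 0.36 ± 0.08 in VTA, a description of values that chose the gene. Within series 1200 alone they were 0.12 ± 0.10, 0.14 ± 0.12 and 0.01 ± 0.12. For P4ha1 the changes were 0.26 ± 0.05, 0.20 ± 0.06 and 0.26 ± 0.06 over all series, and 0.03 ± 0.08, 0.06 ± 0.09 and 0.04 ± 0.08 within series 1200. Both genes thus had smaller changes where cocaine and saline shared a run of numbers, with standard errors of 0.08 to 0.12 from 8 cocaine libraries.

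Narf in AMY and Nac, and Fam107a and Mxd4 in AMY, Nac and VTA, had changes within series 1200 of 0.14 to 0.32. Banp in Nac (0.14) and Rbm12b1 in AMY (0.30) lay in that range too, which was drawn after the values were seen. Narf in AMY ran from 43.0 to 50.2 CPM in the cocaine libraries of that series (median 45.6) and from 35.97 to 46.3 CPM in its saline libraries (median 40.4). Its log2 value changed by 0.17 ± 0.03 in AMY and 0.12 ± 0.04 in Nac over all series, and by 0.21 ± 0.05 and 0.15 ± 0.04 within series 1200, where 8 of 8 and 7 of 8 cocaine libraries lay above the saline median. In VTA Narf changed by 0.14 ± 0.03 over all series and by 0.06 ± 0.05 within series 1200, where 5 of 8 cocaine libraries lay above the saline median. Fam107a changed by 0.17 ± 0.06, 0.19 ± 0.05 and 0.29 ± 0.06 in AMY, Nac and VTA over all series, and by 0.23 ± 0.10, 0.32 ± 0.08 and 0.21 ± 0.10 within series 1200. With each of the 8 cocaine libraries of series 1200 left out in turn, an alternative chosen after seeing the data, these 3 values ran from 0.15 to 0.30, from 0.27 to 0.37 and from 0.15 to 0.24. Such fits assume that a combination left with 1 cocaine library varies like the others, and a combination left with none drops out. The lowest came without group-housed male replicate 6 in AMY and without group-housed female replicate 6 in VTA, the library with 195.5 CPM of Fam107a where the next had 145.6 CPM. Its Nac level there ran from 304.9 to 407.7 CPM in cocaine (median 370.6) and from 260.8 to 339.6 CPM in saline (median 292.3), with all 8 cocaine libraries above the saline median and 6 above every saline library. Mxd4 changed by 0.15 ± 0.03, 0.08 ± 0.03 and 0.14 ± 0.04 over all series and by 0.20 ± 0.06, 0.15 ± 0.05 and 0.14 ± 0.06 within series 1200.

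Rbm11 and Rfesd were the 2 lower genes. Rbm11 changed by -0.23 ± 0.05 in AMY, -0.27 ± 0.09 in Nac and -0.04 ± 0.04 in VTA, and by -0.17 ± 0.08, -0.22 ± 0.14 and -0.09 ± 0.07 within series 1200. Rfesd changed by -0.15 ± 0.03, -0.16 ± 0.05 and -0.07 ± 0.03, and by -0.11 ± 0.05, -0.14 ± 0.07 and -0.15 ± 0.05 within series 1200. In Nac without isolated female replicate 7, the 1 cocaine library of its combination, the within-series values over the 3 combinations left were -0.09 for Rbm11 and -0.04 for Rfesd. Without isolated male replicate 6 they stood at -0.36 and -0.19. Rbm12b1 in AMY stood at 0.24 ± 0.05 over all series and 0.30 ± 0.08 within series 1200, and within series 1200 at 0.02 ± 0.08 in Nac and -0.09 ± 0.08 in VTA. Its reads can be split with the near-identical neighbour Rbm12b2, so its counts are uncertain. Vegfa was 0.22 ± 0.05 in Nac and 0.21 ± 0.05 in VTA over all series, and 0.08 ± 0.08 and 0.03 ± 0.07 within series 1200, the Nac value being -0.01 without isolated male replicate 7.

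At an adjusted p under 0.05 the chronic contrast called 7 of the 9 genes in AMY, 2 in Nac and 4 in VTA, where 0.0518%, 0.151% and 0.0817% of all genes were called. These counts follow from the choice. By limma voom 7 of the 9 were called in AMY, 2 in Nac and 0 in VTA, where 0 of all genes were called and 999 had an unadjusted p under 0.05. Without the libraries that stand apart 0.0289% of all genes were called in Nac, again with 2 of the 9, and DESeq2 called 99 genes there, with 3 of the 9. Nearest the threshold were Mxd4 in AMY inside it, with a log2 change of 0.15, and Narf in VTA outside it, with a log2 change of 0.14. Leaving out the libraries that stand apart, the Nac changes of Banp, P4ha1, Narf, Fam107a and Rfesd were 0.43, 0.26, 0.09, 0.24 and -0.11. All of these calls and changes are over all series. Within series 1200 the edgeR fit called 0 of the 9 in AMY, 0 in Nac and 0 in VTA, also a description.

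**Figure D2:**
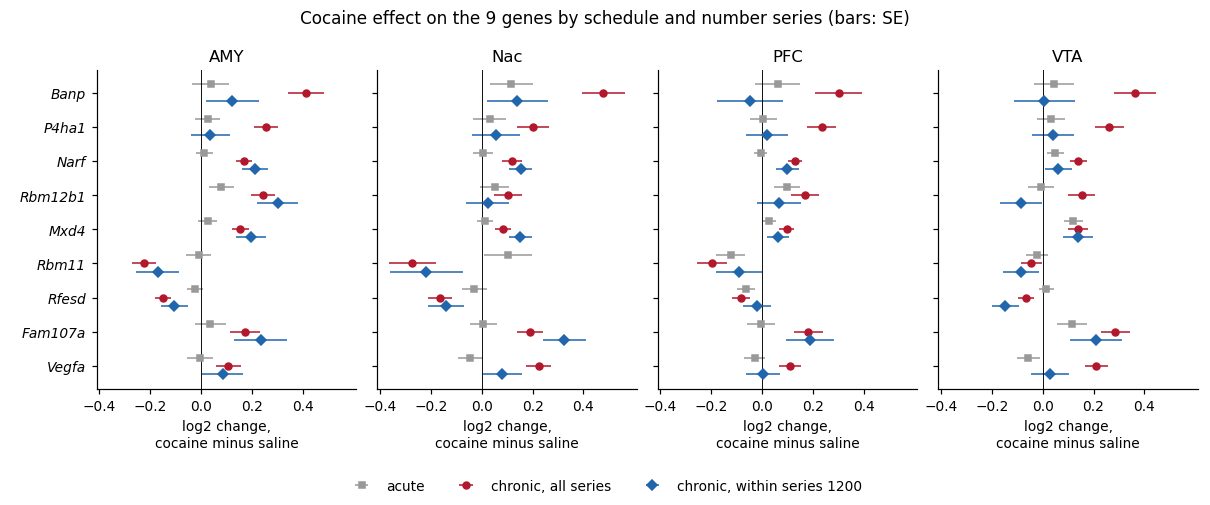
Log2 change of the 9 genes with chronic cocaine over all series, chronic cocaine within series 1200 and acute cocaine, by region, with standard errors. Banp is at 0.30 to 0.48 over all series and at -0.05 to 0.14 within series 1200, while Fam107a is at 0.19 to 0.32 within series 1200.

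PFC libraries were not used to list the genes, although many share title numbers with the regions that were. In chronic libraries, with group and series means removed, the level in PFC correlated over 48 to 52 title numbers with that in AMY, Nac and VTA at r of 0.82, 0.67 and 0.70 for Banp and 0.72, 0.70 and 0.62 for P4ha1. For Fam107a it did so at 0.51, 0.48 and 0.49, and for Rbm12b1 at 0.04, 0.26 and -0.04. The PFC test is therefore not independent of the choice of genes, least of all for Banp and P4ha1. P4ha1 there ran from 36.7 to 55.4 CPM in chronic saline (median 47.3, n = 26) and from 39.4 to 82.5 CPM in chronic cocaine (median 53.5, n = 28). Narf ran from 45.4 to 57.3 CPM (median 51.15) and from 46.9 to 66.5 CPM (median 55.8), and Fam107a from 261.7 to 397.4 CPM (median 309.9) and from 279.2 to 519.6 CPM (median 360.0). For each of these 3 genes the ranges overlap and 24 of 28 cocaine libraries lay above the saline median. Rbm11 ran from 6.91 to 12.69 CPM in saline (median 8.39) and from 5.38 to 9.27 CPM in cocaine (median 7.36), and 2 of 28 cocaine libraries lay above the saline median.

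In PFC, chronic cocaine against chronic saline passed edgeR's quasi-likelihood test, adjusted by Benjamini-Hochberg, for 7 of the 9 genes, 6 higher and 1 lower, against 7.12% of all 17003 genes tested. Narf was higher by 0.13 ± 0.03 (adjusted p = 0.00266), P4ha1 by 0.23 ± 0.06 (adjusted p = 0.00853), Mxd4 by 0.10 ± 0.03 (adjusted p = 0.0269) and Banp by 0.30 ± 0.09 (adjusted p = 0.0353). Fam107a was higher by 0.18 ± 0.06 (adjusted p = 0.0335) and Rbm12b1 by 0.17 ± 0.05 (adjusted p = 0.0401), and Rbm11 was lower, with a change of -0.20 ± 0.06 (adjusted p = 0.0274). Vegfa (0.11 ± 0.04, adjusted p = 0.0954) and Rfesd (-0.08 ± 0.04, adjusted p = 0.144) did not pass. Without the filter on low counts 3 of the 9 passed, and by limma voom 5.

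Within series 1200, where 0.0294% of genes passed in PFC, none of the 9 did by edgeR's quasi-likelihood test, each adjusted p being 1. Of the 9, 2 had an unadjusted p under 0.05, and limma voom also called 0. The changes were -0.05 ± 0.13 for Banp, 0.02 ± 0.08 for P4ha1, 0.10 ± 0.04 for Narf, 0.19 ± 0.09 for Fam107a and -0.09 ± 0.09 for Rbm11. Banp in PFC averaged 25.25 ± 6.50 CPM in chronic cocaine of series 1000 (n = 20) and 16.9 ± 1.66 CPM in that of series 1200 (n = 8), a difference of -0.61 ± 0.13 (adjusted p = 0.0207), among the 0.0647% of genes that differed between the 2 cocaine series by edgeR's quasi-likelihood test. In saline, series 500 averaged 20.7 ± 2.89 CPM (n = 10) and series 1200 17.4 ± 2.60 CPM (n = 16), and that difference did not pass (adjusted p = 0.157). The cocaine series differed by -0.40 ± 0.10 in AMY, -0.46 ± 0.12 in Nac and -0.47 ± 0.12 in VTA, given as a description, where 0.00575%, 0% and 0% of all genes passed.

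Markers of other cells differed between chronic cocaine and chronic saline in PFC over all series, where treatment and number series are partly confounded. By the same test 6 of 8 striatal neuron markers rose, with a list median of 0.52, and their summed level ran from 153 to 632 CPM in saline (median 188.5) and from 175 to 1269 CPM in cocaine (median 219). For dopamine neurons 3 of 5 markers tested rose, and for neurons in general 3 of 7 fell, with a summed level of 5853 to 8519 CPM in saline and 5360 to 7341 CPM in cocaine. Of 10 astrocyte markers 1 rose, and the summed level ran from 2693 to 5064 CPM (median 3852) and from 3128 to 5749 CPM (median 4116). No marker of any list was at 0 in every library of an arm, although single libraries may hold none. Dopamine neuron genes were low there, with medians over all PFC libraries of 4.44 CPM for Th and 0.80 CPM for Slc6a3. Their part in the changes of the 9 genes was not tested, and in bulk tissue fewer cells of a type and less RNA per cell cannot be told apart. In AMY, Nac and VTA no marker of any list passed the chronic test at the same threshold.

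Acute cocaine moved none of the 9 genes detectably. Over 9 genes and 4 regions the 36 log2 changes ran from -0.12 to 0.12, none passed edgeR's quasi-likelihood test (lowest adjusted p = 0.324), 3 had an unadjusted p under 0.05, and DESeq2 and limma voom also called 0. The share of all genes called was 0% in AMY and 0% in Nac, and 0.0647% in PFC and 0.0467% in VTA. For Banp the changes were 0.04 ± 0.07 in AMY and 0.12 ± 0.09 in Nac, and 0.06 ± 0.09 in PFC and 0.05 ± 0.08 in VTA. AMY levels were 18.5 to 37.4 CPM in acute saline (median 27.5, n = 27) and 18.9 to 38.95 CPM in acute cocaine (median 29.0, n = 28). The largest change, that of Rbm11 in PFC, was -0.12 ± 0.06 (adjusted p = 0.4335), and Mxd4 in VTA had the lowest adjusted p at 0.12 ± 0.04. Within series 1000 and within series 1100 none passed either, where 2 and 4 values had unadjusted p under 0.05. In these 2 series 0% of all genes passed in AMY and in Nac, while PFC gave 0% and 0.0765%, and VTA 0% and 1.44%.

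Acute saline libraries had more Banp than chronic saline libraries. Banp averaged 27.65 ± 4.81 CPM in AMY acute saline (n = 27), 23.8 ± 5.23 CPM in Nac (n = 27), 27.0 ± 6.01 CPM in PFC (n = 28) and 22.3 ± 4.07 CPM in VTA (n = 28), against 17.7, 15.6, 18.65 and 13.0 CPM in chronic saline. In AMY 18 of 27 acute saline libraries lay above every chronic saline library, and in VTA 22 of 28. P4ha1 averaged 51.3, 57.8, 67.3 and 51.9 CPM in acute saline. The schedules share no run of numbers in saline, so schedule and run cannot be told apart there. Inside series 1000, chronic cocaine libraries can be set beside acute saline libraries: Banp differed by -0.03 ± 0.08 in AMY and 0.17 ± 0.10 in Nac, and 0.06 ± 0.10 in PFC and -0.20 ± 0.09 in VTA. Of the other 8 genes, Vegfa was past an adjusted p of 0.05 by edgeR's quasi-likelihood test in AMY and Nac, at 0.18 ± 0.06 and 0.20 ± 0.06, and Rfesd in PFC, at 0.13 ± 0.04 (adjusted p = 0.0373). In VTA 6 were past it, Narf (0.22 ± 0.04) and Rfesd (0.13 ± 0.04) higher and P4ha1, Rbm12b1, Mxd4 and Fam107a lower, at -0.20 to -0.31 save Mxd4 at -0.15. Of all genes 15.1%, 9.32%, 13.3% and 39.7% were past it in AMY, Nac, PFC and VTA. The chronic libraries of AMY, Nac and VTA took part in the choice, so those values are a description.

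Neither sex nor housing changed any of the 9 genes past the threshold in the fit without the number series. Females against males ran from -0.08 to 0.10 over 36 values, of which none passed edgeR's quasi-likelihood test (lowest adjusted p = 0.189), 6 had an unadjusted p under 0.05, and 0 passed by DESeq2 or limma voom, while 2.19% of all genes passed in AMY and 0.272% in Nac, and 1.12% in PFC and 0.332% in VTA. The value of Rfesd in VTA, 0.07 ± 0.02, had the lowest adjusted p. Isolated against group-housed mice ran from -0.11 to 0.05, with 0 of 36 past the same test, 3 at an unadjusted p under 0.05 and 0 by DESeq2 or limma voom, and 0% of all genes passed in AMY, Nac, PFC and VTA. With the number series in the model, Narf (-0.07 ± 0.02, adjusted p = 0.0252) and Rfesd (0.12 ± 0.03, adjusted p = 0.0103) passed for sex in Nac, and Narf (-0.09 ± 0.02, adjusted p = 0.00117) for housing in Nac, where 12.6% and 10.8% of all genes passed. Without the libraries that stand apart none of these 3 calls remained, and in the fit without the number series 0.63% of genes then passed for sex in Nac. Those left out in Nac include the 2 labelled female that held Y-linked transcripts. They also include isolated female replicate 6 of chronic saline, alone in its combination in series 500. That library had 25.14 CPM of Narf (next 48.00) and 24.06 CPM of Rfesd (next 15.54). Which of these libraries the 3 calls depended on was not tested.

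Whether cocaine acted alike in the 4 sex-by-housing combinations was tested with an F test in the same edgeR fit. For acute cocaine none of the 36 values passed, with 0 at an unadjusted p under 0.05 and 0 by limma voom, where 0%, 0%, 0% and 0.362% of genes passed in AMY, Nac, PFC and VTA. For chronic cocaine none of the 36 passed, again with 0 at an unadjusted p under 0.05 and 0 by limma voom, where 0%, 0.145%, 0% and 0% of genes passed.

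The acute libraries allow the number runs to be compared with treatment balanced. From series 1000 to series 1100 Banp was higher by 0.17 ± 0.06 in AMY and 0.24 ± 0.07 in Nac, and 0.17 ± 0.07 in PFC and 0.20 ± 0.07 in VTA, with adjusted p of 0.0920, 0.0796, 0.190 and 0.141 by edgeR's quasi-likelihood test, so none passed. P4ha1 in PFC (0.17 ± 0.05, adjusted p = 0.0360) and Vegfa in AMY (0.16 ± 0.05, adjusted p = 0.0459) passed, as did 2.28% and 5.12% of all genes there. Neither passed by limma voom or without the libraries that stand apart. In Nac and VTA 1.15% and 0.0817% of genes passed and none of the 9 did, 13 of the 36 values having an unadjusted p under 0.05. Chronic saline of series 1200 against series 500 gave 1 gene past the threshold among the 36 values, Vegfa in Nac at 0.29 ± 0.08, where 44.1% of all genes were called, beside 4.06% in AMY, 14.6% in PFC and 0.0642% in VTA. Without the libraries that stand apart, 2.86% of all genes were called in Nac and 2 of the 9. Narf turned from 0.10 to -0.24 and Mxd4 moved from -0.05 to -0.18, both past the threshold, and Vegfa was 0.22 ± 0.08. The isolated females of series 500 in Nac are a single library, replicate 6, which is among those left out. Leaving out that library alone was not tested. The chronic saline libraries of AMY, Nac and VTA took part in the choice of genes, so their values are a description.

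Levels of Banp and P4ha1 also stepped inside a number series. Among chronic cocaine libraries of series 1000, Banp in AMY averaged 28.9 ± 5.14 CPM in the lower-numbered block (n = 12) and 20.8 ± 2.73 CPM in the higher-numbered block (n = 10). Nac gave 27.1 ± 4.44 and 19.1 ± 4.85 CPM, PFC 29.5 ± 4.74 and 20.1 ± 4.19 CPM, and VTA 21.4 ± 3.08 and 14.8 ± 2.67 CPM. Acute libraries of series 1100 had the opposite order: 21.9 ± 2.04 CPM in the lower block (n = 6) and 31.6 ± 4.44 CPM in the higher block (n = 21) in AMY, 18.6 and 28.8 CPM in Nac, 20.3 and 32.2 CPM in PFC, and 16.99 and 26.4 CPM in VTA. P4ha1 had the same steps, at 50.9 ± 6.83 and 41.4 ± 3.66 CPM in AMY chronic cocaine and 41.5 ± 1.83 and 56.15 ± 7.67 CPM in AMY acute libraries. These blocks were drawn after the levels were seen and were not tested.

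**Figure D3:**
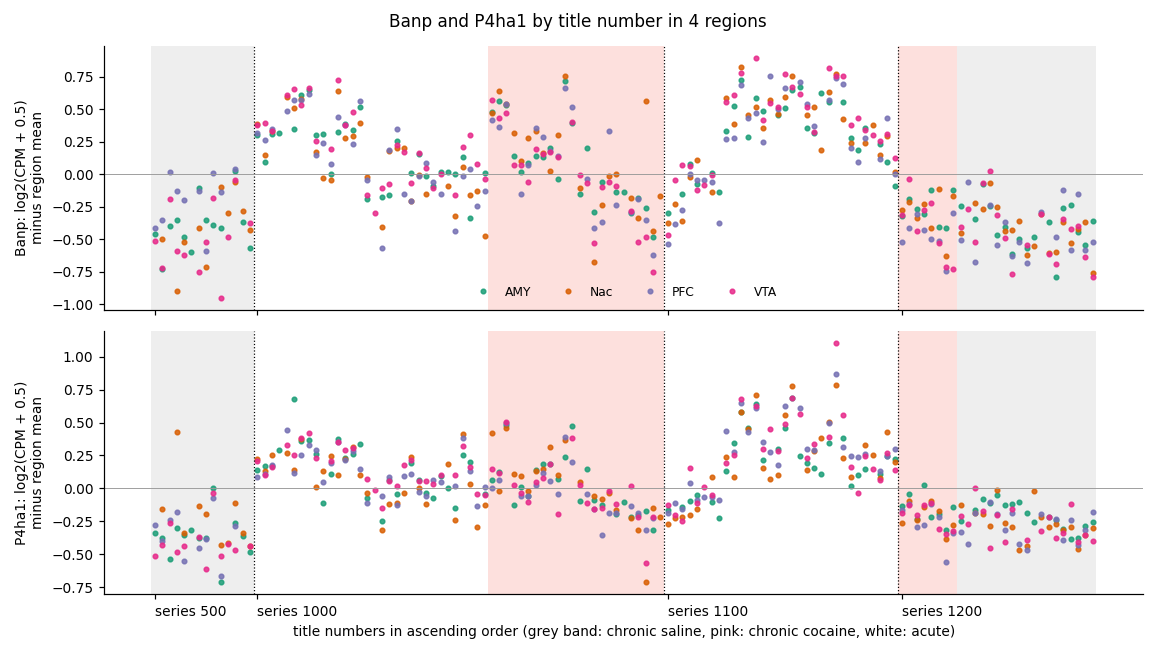
Log2 of CPM plus 0.5, minus the region's mean, of Banp and P4ha1 in each library, with libraries in ascending order of title number, the region by colour, and shaded bands for chronic saline (grey) and chronic cocaine (pink). Among chronic cocaine libraries of series 1000 in AMY, Banp averages 28.9 CPM in the lower-numbered block and 20.8 CPM in the higher-numbered block.

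Number decades, meaning title numbers that differ only in the last digit, held 54.5% to 68.8% of the variance of Banp and P4ha1 that group and series left, in every region, where they took 15% to 16.9% of the degrees of freedom. For Mxd4 in VTA the share was 53.3%, and for the other genes and regions at most 36.01%, as for Narf in AMY, the lowest being 9.33% for Rbm12b1 in AMY.

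**Figure D4:**
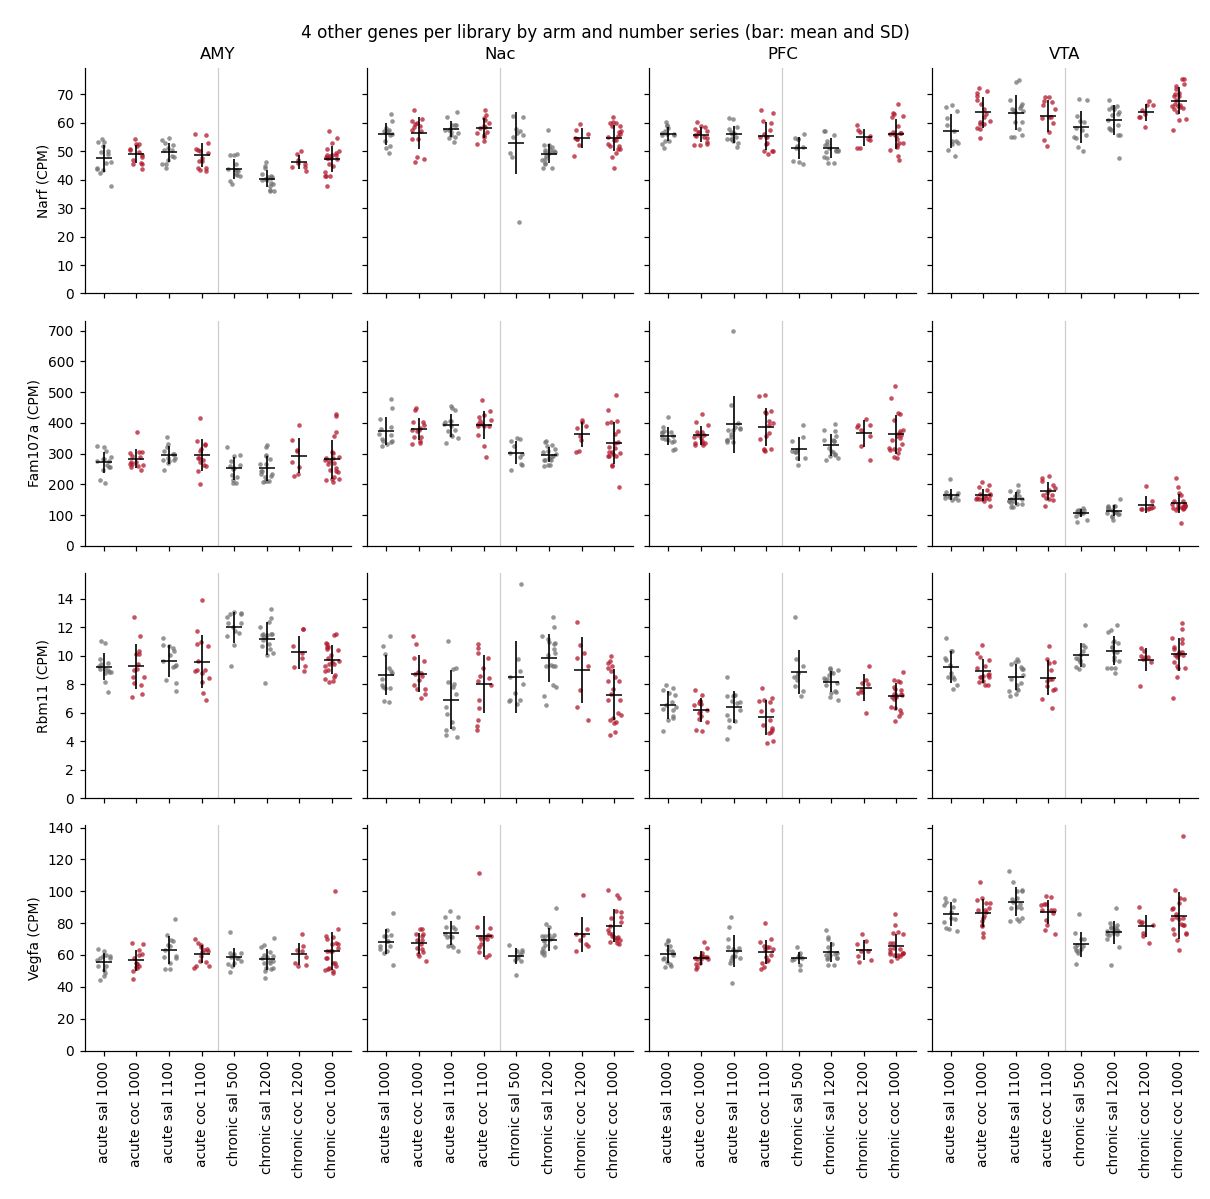
CPM of Narf, Fam107a, Rbm11 and Vegfa in each library, by region, schedule, treatment and number series; each point is 1 library and bars mark the mean and SD. In Nac, Fam107a averages 362 CPM in the cocaine libraries of series 1200 and 296 CPM in the saline libraries of that series.

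The same title number tended to be high or low in all 4 regions for Banp and P4ha1. After group and series means were removed, the level of Banp in acute libraries correlated between every pair of regions, with Pearson's r of 0.68 to 0.83 and Spearman's rho of 0.60 to 0.82 over 48 to 54 title numbers. Each reached the smallest permutation p (1e-05, Benjamini-Hochberg adjusted 4.15e-05 over 54 relations), and without the 2 libraries farthest from the median r was 0.61 to 0.83. For P4ha1 r was 0.72 to 0.85 and rho 0.59 to 0.80, and r was 0.56 to 0.81 without the 2 farthest. These p-values treat title numbers as exchangeable, and numbers of the same decade were alike. With decade means also removed, an alternative chosen after seeing the data, r was 0.22 to 0.59 for Banp and 0.28 to 0.68 for P4ha1. Each acute group of series 1000 lies in a single decade, so this removal changes values of series 1100 only. In series 1000 alone Banp gave 0.22 to 0.64 and in series 1100 alone 0.79 to 0.91. P4ha1 gave 0.29 to 0.77 in series 1000 and 0.84 to 0.88 in series 1100.

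The other 7 genes were also compared between regions. Rbm11 gave r of 0.16 to 0.46 (4 of 6 pairs past an adjusted permutation p of 0.05), Fam107a 0.12 to 0.44 (3 of 6), Rbm12b1 -0.15 to 0.57 (2 of 6), and Vegfa, Mxd4 and Rfesd 1 of 6 each. Narf gave -0.19 to 0.16, with 0 of 6 past the permutation test at either an adjusted or an unadjusted p under 0.05. The single pairs of Vegfa, Mxd4 and Rfesd did not pass by Spearman's rho (adjusted permutation p = 0.0517 each). With decade means also removed, the 4 pairs of Rbm11 fell to r of 0.04 to 0.24 and the 3 of Fam107a to 0.24 to 0.31, while Rbm12b1 in Nac and PFC stood at 0.54. In chronic libraries, given as a description, r of Narf was 0.49 between AMY and Nac, 0.48 between AMY and PFC and 0.45 between Nac and PFC, and r of Vegfa was 0.37 to 0.62 over the 6 pairs, against 0.04 to 0.44 in acute libraries.

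**Figure D5:**
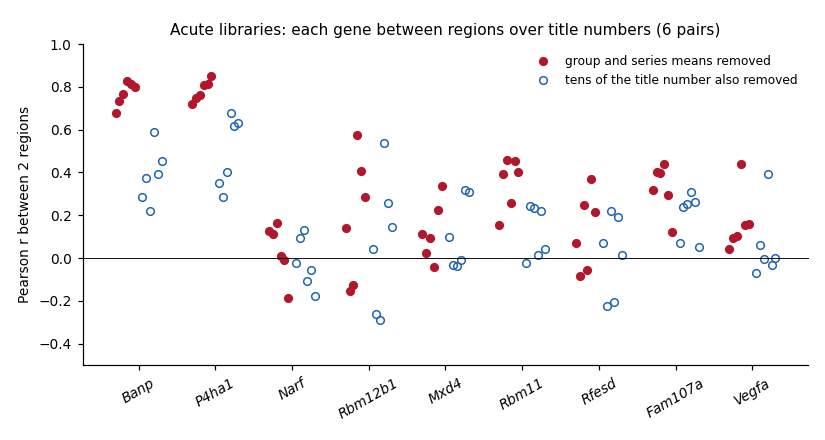
Pearson's r of each gene between each pair of regions over title numbers in acute libraries, with group and series means removed (filled points) and with decade means also removed (open points). With group and series means removed, Banp lies at 0.68 to 0.83 and P4ha1 at 0.72 to 0.85, and Narf lies at -0.19 to 0.16.

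Within a region Banp and P4ha1 varied together across acute libraries. In the order AMY, Nac, PFC and VTA, r was 0.60, 0.65, 0.65 and 0.68 (permutation p = 1e-05 for each, the smallest that could be reached, adjusted 0.000103 over all pairs of the 9 genes in these regions). Spearman's rho was 0.39, 0.56, 0.57 and 0.64 (adjusted permutation p at most 0.0116), and r was 0.49 to 0.66 without the 2 libraries farthest from the median. With decade means removed, which was not tested, r was -0.04, 0.24, 0.03 and 0.03. Series 1000 alone gave -0.11, 0.28, 0.02 and 0.27 and series 1100 alone 0.82, 0.77, 0.81 and 0.74. Banp ran against Rbm11, with r of -0.58, -0.41, -0.53 and -0.62 (adjusted permutation p at most 0.00737) and rho of -0.57, -0.37, -0.50 and -0.64. With decade means removed that r was -0.47, -0.06, -0.15 and -0.22. Banp also ran against Rfesd, with r of -0.43, -0.57, -0.48 and -0.49 (adjusted permutation p at most 0.00487) and rho of -0.44, -0.64, -0.43 and -0.45. With decade means removed r was -0.48, -0.56, -0.26 and 0.02, the last of these near 0. Rbm11 and Rfesd, the 2 genes lower in chronic cocaine, ran together at 0.39, 0.49, 0.32 and 0.42 (rho 0.37, 0.43, 0.31 and 0.38, adjusted permutation p of r at most 0.0302), and at 0.43, 0.38, 0.13 and 0.12 with decade means removed.

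Across 12758 genes and 225 acute libraries, with region, group and series means removed, the genes whose residuals were most like those of each member were named as a description. For Banp they were Zbtb40, a zinc finger gene (r = 0.74), Creld2, an endoplasmic reticulum stress gene (0.68), and Xbp1, a transcription factor of the unfolded protein response (0.65). For P4ha1 they were the endoplasmic reticulum chaperone gene Hspa5 (0.84), Xbp1 (0.80) and Pdia4, a protein disulfide isomerase gene (0.79). Rbm12b1 was nearest to the splicing genes Hnrnph1 (0.64), Clk1 (0.62) and Tra2a (0.60), and its paralog Rbm12b2 was next at 0.59. Narf was nearest to Reep1 (0.70), Mxd4 to Thap7 (0.59), Rbm11 to Fbxl4 (0.65), Rfesd to Itfg1 (0.57), Fam107a to Rin2 (0.58) and Vegfa to Mafg (0.56). Points of 1 region share its dissection, and points of 1 title number recur over regions.

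With chronic cocaine Zbtb40 was higher by 0.33 ± 0.07 in Nac and 0.19 ± 0.06 in PFC (adjusted p = 0.0184 and 0.0430 by edgeR's quasi-likelihood test) and stood at 0.19 ± 0.06 in AMY and 0.16 ± 0.06 in VTA, which did not pass (adjusted p = 0.266 and 0.565). Within series 1200 it stood at 0.02 ± 0.09 in AMY and -0.002 ± 0.11 in Nac, and at -0.03 ± 0.10 in PFC and -0.08 ± 0.09 in VTA. Hspa5 was 0.12 ± 0.05 in AMY and 0.14 ± 0.05 in VTA over all series, neither past the threshold, and -0.16 ± 0.08 and -0.01 ± 0.08 within series 1200.

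Pathway lists around the 9 genes were drawn up with earlier results of these data known, and the shares of their genes called lay near those of all genes. Of the listed genes other than the 9 themselves, 107 were tested in AMY, Nac and PFC and 106 in VTA. With chronic cocaine edgeR's quasi-likelihood test called 0 in AMY (8 at an unadjusted p under 0.05), 0 in Nac (23) and 0 in VTA (11); limma voom also called 0 in each, and DESeq2 called 0, 2 and 0. All genes were called there at 0.0518%, 0.151% and 0.0817%. In PFC 7 of 107 were called, all higher, where 7.12% of all genes were called. Among 24 HIF targets 2 rose, Ddit4, an inhibitor of mTOR signalling (0.21 ± 0.06, adjusted p = 0.0173), and the stress-responsive Ndrg1 (0.36 ± 0.12, adjusted p = 0.0454), and the list median was 0.00 beside 0.00 for all genes. None of 10 HIF regulators, 8 VEGF ligands and receptors, 10 collagen-modifying hydroxylases and 7 BEN domain genes passed in PFC, while 2, 2, 2 and 5 of them had unadjusted p under 0.05 by the same test. In the MAX network 1 of 12 rose, Mxd3, a relative of Mxd4 (0.66 ± 0.15, adjusted p = 0.00537). Of 19 RBM genes Rbm24 (0.11 ± 0.04, adjusted p = 0.0426) and Rbm12b2 (0.13 ± 0.04, adjusted p = 0.0463) rose.

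Of 20 glucocorticoid-responsive genes, a list drawn up beside Fam107a with earlier results known, 3 rose with chronic cocaine in PFC: the receptor co-chaperone Fkbp5 (0.22 ± 0.06, adjusted p = 0.0109), Ddit4 and the metallothionein gene Mt2 (0.27 ± 0.09, adjusted p = 0.0435). Of all genes 7.12% were called there. Within series 1200, 18 of 20 had a positive value in AMY and 19 in Nac, and 18 in PFC and 19 in VTA, with list medians of 0.19, 0.15, 0.17 and 0.13 beside all-gene medians of 0.00, -0.01, 0.00 and -0.01 and 50.4%, 46.9%, 48.2% and 46.5% of all genes positive. Of these, Ddit4 in PFC passed edgeR's quasi-likelihood test (0.39 ± 0.08, adjusted p = 0.0241), where 0.0294% of all genes did. Treatment and decade cannot be told apart within series 1200, and the regions share title numbers, so the 4 counts of positive values are not independent. Acute cocaine gave 18, 13, 18 and 18 positive values, with medians of 0.09, 0.07, 0.12 and 0.09 beside all-gene medians of 0.01, 0.00, 0.00 and 0.00 and 54.1%, 47.6%, 51.0% and 51.1% of all genes positive. Ddit4 in PFC rose (0.26 ± 0.06, adjusted p = 0.0220). Fam107a itself stood at 0.04, 0.01, -0.01 and 0.12 with acute cocaine.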

How the data were processed

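The authors deposited 1 table of raw counts per gene for all 454 libraries, 43346 Ensembl genes; 42462 have a symbol, and genes without one hold 0.11% of counts. The submitters' processing notes list GRCm38/mm10 with limma, featureCounts and STAR, without versions; annotation release and strand setting were not found in the labels. Per the labels' protocols, libraries were stranded TruSeq mRNA read as single ends. Banp shares 252 exon bases (3.8%) with the antisense gene Gm27011, which held 120 counts in all, and Mxd4 shares 514 (6.06%) with Gm42846.

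Counts were scaled with TMM factors, filtered with filterByExpr and tested per region with edgeR 4.0.16 (R 4.3.3) over 16 groups, averaging contrasts over sex and housing, with Benjamini-Hochberg adjustment over all genes tested. A second fit split groups by number series. Alternatives used DESeq2 1.42.0, limma 3.58.1 voom, other scaling, no filter, series in the model, or fewer libraries. Levels are CPM; paired comparisons and correlations used log2(CPM + 0.5) and 100000 permutations. The edgeR fit over 16 groups was tested on simulated AMY counts, for the acute and sex contrasts only. The simulated counts held no differences between number series or decades. The 9 genes and the gene lists were chosen with earlier results of these data known. Genes other than the 9 were named by rule: the 3 with the highest r to each member, and list genes past the threshold or with the lowest p. More counts per library narrow the error of low genes such as Rbm12b1; at these depths the spread between libraries limits most values.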

Additional observations from a re-analysis of the deposited data

Results flagged for a closer look

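Of 54 sets of 4 to 10 libraries examined, 10 held a library far from the others, where chance gives about 1 in 20. In 5 of them it was the same library, Nac chronic saline of isolated females, replicate 6, of series 500. It had 69.61 CPM of P4ha1 (next 47.79), 25.14 CPM of Narf (next 48.00), 17.15 CPM of Rbm12b1 (next 11.35), 15.06 CPM of Rbm11 (next 9.79) and 24.06 CPM of Rfesd (next 15.54).

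In PFC chronic saline of series 500, group-housed female replicate 7 was highest in Rbm12b1, at 10.76 CPM (next 8.015), and in Rbm11, at 12.69 CPM (next 9.797). In VTA chronic cocaine of series 1200, group-housed female replicate 7 was lowest in Rbm11 at 7.877 CPM (next 9.562) and replicate 6 highest in Fam107a at 195.5 CPM (next 145.6). In Nac chronic cocaine of series 1200, isolated male replicate 7 was highest in Vegfa at 97.99 CPM (next 76.25).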

How the results depend on the processing

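No paired analysis was possible because a title number occurs in one group only within a region; across regions the numbers paired the comparison of levels. Of 1251 log2 changes of the 9 genes under alternatives, 5 turned sign, 17 lost and 5 gained the threshold, and 2 of those that leave out 1 library moved by over 1 standard error. Of 123 counts of these genes 113 stayed within 1.5 times. Both tallies leave out the chronic contrast over all series in AMY, Nac and VTA, which chose the genes. With number series in the model that contrast called 0 of the 9 in each of these regions, against 7, 2 and 4 without it. Leaving out each of the 5 isolated male AMY libraries with acute cocaine gave 0 genes each time. With each cocaine library of series 1200 left out in turn, Vegfa within that series in Nac ran from -0.01316 to 0.155.

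For chronic cocaine in PFC, 639 genes and 3 of the 9 passed without a filter, and 5 genes and 0 of the 9 with number series in the model, where Banp stood at -0.048. For acute cocaine, DESeq2 called 2 genes in Nac and 21 in VTA. VTA gave 0 without a filter, by limma voom, without the libraries that stand apart and with series in the model, and PFC gave 19 and 23 in the last 2. For sex, Nac gave 109 without those libraries and 2173 with series in the model (2 of the 9), and PFC gave 74 without a filter, 331 without those libraries and 84 with series. For housing, series in the model gave 1861 genes in Nac (1 of the 9), and DESeq2 gave 1 in VTA. For the difference between sex and housing combinations, limma voom gave 0 in Nac (chronic) and 2 in VTA (acute), and leaving out those libraries gave 2 and 0.

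Between series 1100 and 1000, leaving out those libraries gave 182 genes in AMY and 345 in Nac, and 65 in PFC and 3 in VTA, and limma voom gave 4 in Nac, 180 in PFC and 0 in VTA. Both gave 0 of the 9 in AMY and PFC. Between the cocaine series, leaving them out gave 2 in AMY and 2 in Nac, and limma voom gave 1 in Nac, 24 in PFC and 1 in VTA. Between the saline series in Nac, leaving them out gave 494 genes; that and limma voom each gave 2 of the 9. There Narf turned to -0.24, Rbm12b1 to 0.0021 and Rfesd to 0.035. The cause was not tested for any of these.

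P4ha1 in AMY minus VTA was -0.0043 over acute libraries. Without TMM factors Banp in AMY minus PFC was 0.102, Mxd4 in Nac minus PFC -0.003, Narf in Nac minus PFC 0.052 and Vegfa in AMY minus PFC 0.017. Within series 1000 these r turned sign: Banp with P4ha1 in AMY (-0.11), with Fam107a in AMY (-0.21) and Nac (-0.055), and with Rbm12b1 in VTA (-0.10); P4ha1 with Fam107a in AMY (-0.19), Rbm11 in PFC (0.063), and Mxd4 (-0.035) and Rfesd (0.18) in VTA; in VTA also Narf with Vegfa (-0.23) and Rbm12b1 with Fam107a (-0.050). With decade means removed, Banp with P4ha1 in AMY was -0.037, with Fam107a -0.12 in AMY and -0.078 in Nac, and with Rfesd in VTA 0.021, and P4ha1 was -0.071 with Fam107a in AMY and -0.095 with Mxd4 in VTA. A value within 1 standard error of 0 and past no threshold was taken to have no direction.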
